A study of Mus musculus with 4 samples.

Results

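The genes described here act in meiotic recombination, and their transcripts were measured in mouse oocytes by RNA sequencing. They were chosen by name: Spo11, Mei1, Dmc1, Meiob, Hfm1, Msh4, Msh5, Rnf212 and Mlh3, 9 genes in all. A row was found for 8 of them among the 26631 rows of the table. Spo11 (chromosome 2, 172977700 to 172993576) had no row under its name and is not analysed here. Of the rows, 0 were at 0 in all 4 libraries, so genes without reads may have been left out of the table. Denuded oocytes, freed of the cumulus cells around them, were cultured with HDACi 4b in one group and with the solvent DMSO in the other, with 2 libraries each. HDACi 4b blocks HDAC1 and HDAC3, deacetylases that take acetyl groups off histones. The mice of both groups were wild type, on the C57BL/6 background, and 24 days old (postnatal day 24). By the study's methods RNA was taken from oocytes pooled by group, and neither they nor the labels say whether the libraries came from separate animals or cultures, so the p-values cover only how far these libraries differ, and that spread may be technical.

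In female mice recombination takes place in the fetal ovary, before the oocytes arrest at the end of prophase. SPO11 cuts both DNA strands, and MEI1 is needed for these breaks. The recombinase DMC1, with MEIOB keeping single-stranded DNA covered, then pairs the broken end with the homologous chromosome. The helicase HFM1, the MSH4 and MSH5 pair and RNF212 turn some of these joints into crossovers, and MLH3 helps to complete them. The postnatal oocyte has passed these steps, so the table shows which of their transcripts were still present and whether their levels differed after culture with the inhibitor.

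At postnatal day 24 the transcripts were unequal in level. Rnf212 and Msh4 were the highest, at 3.92 ± 0.537 and 3.60 ± 0.366 RPKM over all libraries (reads normalized for gene length and library size; mean ± SD, n = 4), while Msh5 was the lowest at 0.0692 ± 0.0591 RPKM. None of the 8 genes differed between HDACi 4b and DMSO oocytes at a Benjamini-Hochberg adjusted p under 0.05 in limma. With a pseudocount of 0.1 RPKM the largest log2 fold change in size was 0.37, for Mei1, a fold of 1.29 (95% interval 0.498 to 3.35). In limma-voom on recovered reads it was -1.102, for Msh5, which had 22 reads in all. For Rnf212, Msh4 and Dmc1, the members with a mean of at least 1 RPKM, the interval lay within 2-fold in either direction.

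**Figure D1:**
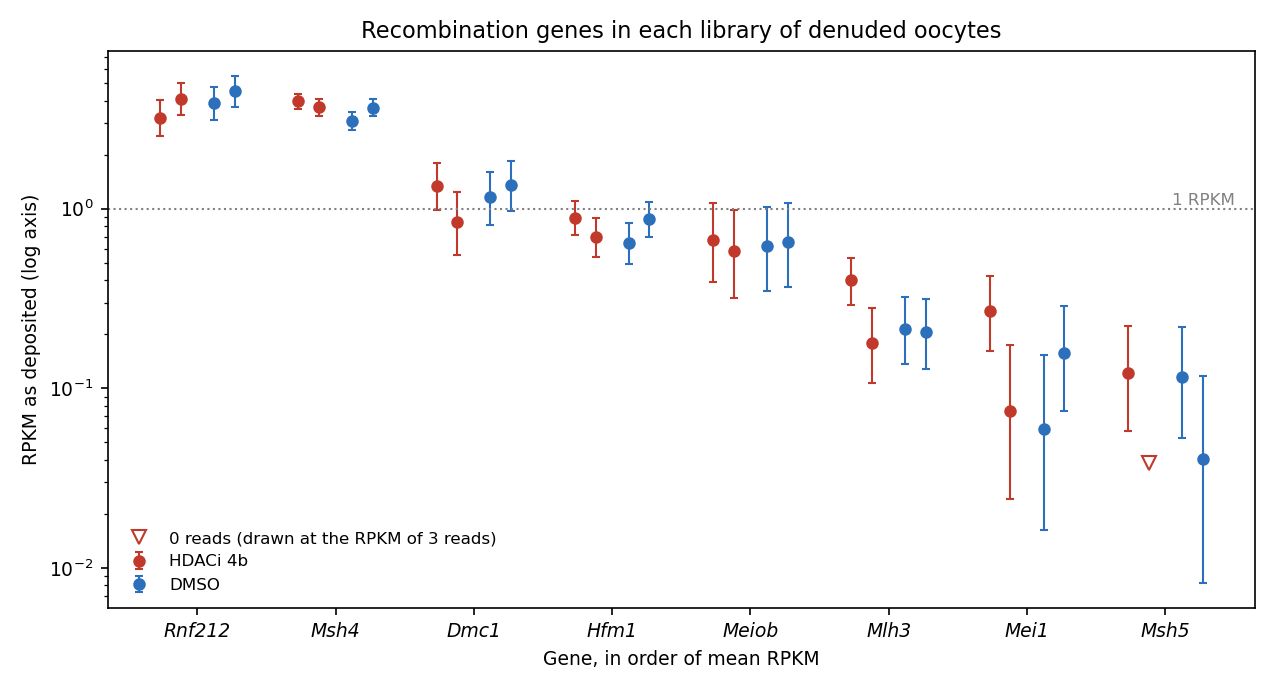
RPKM of the 8 recombination genes in each library, on a log axis, with HDACi 4b libraries (red, replicates 1 and 2) left of DMSO libraries (blue, replicates 1 and 2). Points are single libraries, bars are exact 95% Poisson intervals of the reads, and the open triangle, drawn with no bar at the level of 3 reads, is the library with 0 Msh5 reads; red and blue points overlap for 7 of the 8 genes after scaling, and Msh4 is the other.

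The libraries held 14903547 and 14091412 reads with HDACi 4b and 14143248 and 13478189 reads with DMSO. One read of a gene was worth 0.00888 to 0.0450 RPKM in these rows, depending on gene length and library. Oocyte markers were high in every library. The 14 markers summed to 8521 and 8643 RPKM in HDACi 4b oocytes and 9673 and 7685 RPKM in DMSO oocytes, although Sohlh1, an early oocyte gene, was at 0 in 3 libraries. The 12 granulosa and cumulus markers with a row summed to 7.48 and 6.31 RPKM against 6.36 and 7.41 RPKM, and the 9 theca and stroma markers to 1.51 and 0.712 RPKM against 0.934 and 1.28 RPKM. Cyp19a1, the aromatase, made up much of the granulosa sums, at 3.49 and 3.26 RPKM against 3.03 and 3.31 RPKM, as did Nr5a2, a nuclear receptor, at 3.26 and 2.38 RPKM against 2.27 and 3.52 RPKM. Foxl2, a transcription factor of granulosa cells, was at 0 in 3 libraries. The 10 blood, immune and endothelial markers with a row summed to 49.5 and 13.04 RPKM with HDACi 4b and 29.6 and 17.7 RPKM with DMSO. By these last sums HDACi 4b replicate 1 was the highest and HDACi 4b replicate 2 the lowest. Lyz2 made up much of them, at 29.4 and 6.69 RPKM against 16.7 and 9.42 RPKM, as did Csf1r, at 10.7 and 1.64 RPKM against 5.57 and 1.59 RPKM. Not every gene of the list had this order. Cd14 was at 1.15 and 1.04 RPKM with HDACi 4b and 1.98 and 2.50 RPKM with DMSO.

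Members were also unequal between the HDACi 4b replicates. As deposited, 7 of the 8 genes were higher in HDACi 4b replicate 1 than in replicate 2, where 64.5% of 24402 rows with reads in this group were. After scaling of the libraries it was 6 of 8 genes, and 55.3% of rows. The part of the immune markers in this was not tested.

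The levels fell into steps. Rnf212 and Msh4 overlapped in range, at 3.22 to 4.50 and 3.09 to 3.96 RPKM. Msh4 averaged 3.06 times the next gene, Dmc1, and these ranges did not overlap. Dmc1, Hfm1 and Meiob formed a middle group in which each gene overlapped its neighbour. Meiob averaged 2.53 times Mlh3 with no overlap of the library values, and Mlh3, Mei1 and Msh5 again overlapped in turn. The counting intervals of Meiob and Mlh3 did overlap. In RPKM they reached 0.319 to 0.979 for Meiob in HDACi 4b replicate 2 and 0.292 to 0.535 for Mlh3 in HDACi 4b replicate 1. Among all 26631 rows, each above 0 in at least 1 library, Rnf212 ranked 5463 and Msh4 5673 by mean RPKM, above 79.5% and 78.7% of rows. Msh5 ranked 18748, above 29.6%. The median of the 8 genes was 0.706 RPKM, against 0.308 RPKM for all rows.

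**Figure D2:**
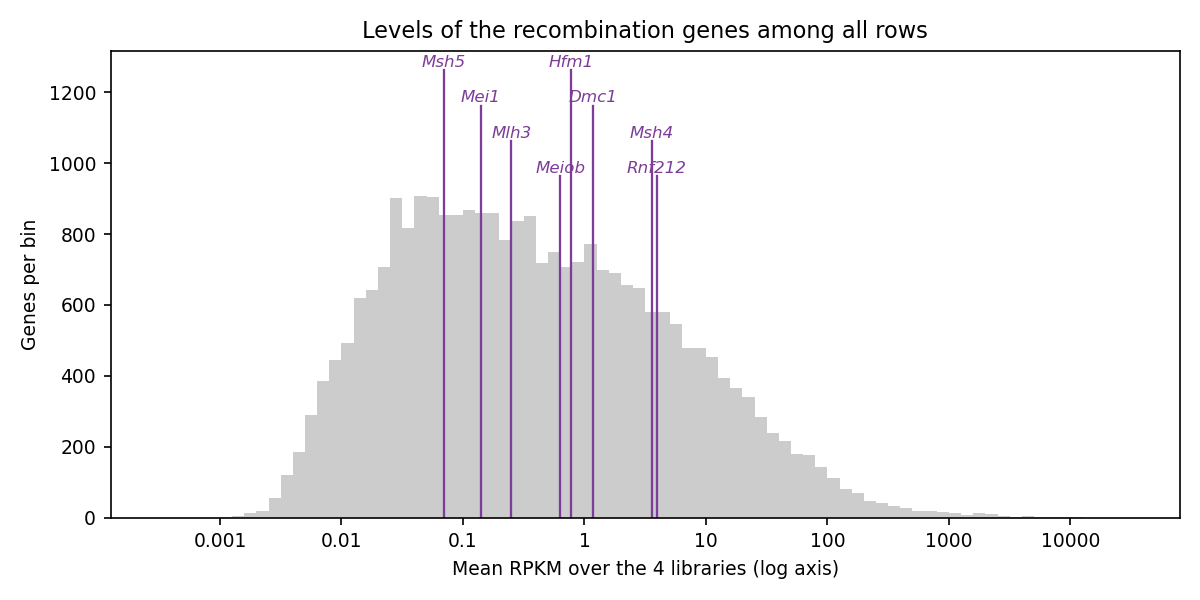
Distribution of the mean RPKM of all 26631 rows over the 4 libraries (log axis; bars are genes per bin), with the 8 recombination genes as purple lines. The genes span the middle of the distribution, with Msh5 at 0.0692 RPKM on the left and Rnf212 at 3.92 RPKM on the right.

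MSH4 and MSH5 work as a pair that holds crossover intermediates. The Msh4 mean was 51.9 times that of Msh5, which had 22 reads over the 4 libraries and 0 in HDACi 4b replicate 2. That ratio thus rests on a value near the limit of detection. The mismatch repair relative Msh6, at 12.3 RPKM, was 3.43 times Msh4. These are ratios of mean RPKM over all libraries, given as a description.

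Break formation was represented by 1 gene with few reads. Mei1 (chromosome 15, 82069996 to 82126814, 31 merged exons) was at 0.269 and 0.0749 RPKM in HDACi 4b oocytes, from 19 and 5 reads, and at 0.0597 and 0.157 RPKM in DMSO oocytes, from 4 and 10 reads. The highest library was HDACi 4b replicate 1 and the groups overlapped. The replicates differed by 3.59 times with HDACi 4b and 2.62 times with DMSO, more than the group means, whose ratio was 1.59. The fold on the log2(RPKM + 0.1) scale was 1.29 with a 95% interval of 0.498 to 3.35, from the fit without a filter on low values (limma adjusted p = 1.0). Without HDACi 4b replicate 1 the log2 fold change turned to -0.13.

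Neither gene of strand exchange passed the test. Dmc1 (chromosome 15, 79561497 to 79605109), the meiosis-specific recombinase, was at 1.35 and 0.842 RPKM in HDACi 4b oocytes and at 1.16 and 1.35 RPKM in DMSO oocytes. HDACi 4b replicate 2 was the lowest and the other libraries lay close together. The log2 fold change was -0.15 (SE 0.33), or 0.899-fold (95% interval 0.518 to 1.56) (limma adjusted p = 1.0), and without HDACi 4b replicate 2 it was 0.09. These levels came from 44 and 26 reads against 36 and 40 reads at a gene length of 2192 bases. Its reads are uncertain, since a length of 1096 bases fits the values as well and gives 22 and 13 reads against 18 and 20.

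Meiob (chromosome 17, 24804289 to 24839788), which coats single-stranded DNA in meiosis, was the steadiest member. It was at 0.670 and 0.583 RPKM in HDACi 4b oocytes, from 17 and 14 reads, and at 0.623 and 0.653 RPKM in DMSO oocytes, from 15 reads in each. The DMSO levels lay between those of the HDACi 4b libraries. The fold was 1.02 with a 95% interval of 0.548 to 1.91 without a filter on low values (limma adjusted p = 1.0). Its direction was not fixed: the log2 fold change of 0.033 became -0.025 without scaling and -0.080 without DMSO replicate 2.

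Crossover genes included the highest and the lowest members. Rnf212 (chromosome 5, 108729290 to 108774982) encodes a RING-type protein that stabilizes crossover intermediates. It was at 3.22 and 4.09 RPKM in HDACi 4b oocytes, from 79 and 95 reads, and at 3.86 and 4.50 RPKM in DMSO oocytes, from 90 and 100 reads. HDACi 4b replicate 1 was the lowest and the groups overlapped. The log2 fold change was -0.13 (SE 0.22), or 0.914-fold (95% interval 0.631 to 1.33) (limma adjusted p = 1.0). It was 0.12 without HDACi 4b replicate 1.

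Msh4 (chromosome 3, 153857149 to 153906138) had the most reads. It was at 3.96 and 3.67 RPKM in HDACi 4b oocytes, from 407 and 357 reads, and at 3.09 and 3.66 RPKM in DMSO oocytes, from 301 and 340 reads. Both HDACi 4b libraries lay above both DMSO libraries, by a narrow margin as deposited. After scaling the groups were further apart, at 3.84 and 3.97 against 3.38 and 3.19 scaled RPKM. The log2 fold change was 0.24 (SE 0.18), or 1.18-fold (95% interval 0.879 to 1.60), and did not pass the test (limma adjusted p = 1.0). Of the 8 genes only Msh4 had groups that did not overlap, while 11.6% of all rows had HDACi 4b above DMSO in this way and 12.5% had it below. One exon of Msh4 shares 125 bases with the small nucleolar RNA gene Gm24395 on the opposite strand, whose reads may be included.

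Hfm1 (chromosome 5, 106840192 to 106926321), a DNA helicase of the crossover pathway, was at 0.893 and 0.700 RPKM in HDACi 4b oocytes, from 89 and 66 reads. In DMSO oocytes it was at 0.645 and 0.877 RPKM, from 61 and 79 reads. The groups overlapped, with one high and one low library in each. The fold was 1.09 with a 95% interval of 0.619 to 1.92 without a filter on low values (limma adjusted p = 1.0).

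Mlh3 (chromosome 12, 85234520 to 85270599), which encodes a subunit of the nuclease that completes crossovers, was at 0.400 and 0.178 RPKM in HDACi 4b oocytes, from 45 and 19 reads. In DMSO oocytes it was at 0.215 and 0.206 RPKM, from 23 and 21 reads. HDACi 4b replicate 1 stood above the other 3 libraries, which lay close together. The fold was 1.23 with a 95% interval of 0.503 to 3.03 without a filter on low values (limma adjusted p = 1.0), and the log2 fold change was -0.065 without HDACi 4b replicate 1.

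Msh5 (chromosome 17, 35028605 to 35046745) was near the limit of detection. HDACi 4b oocytes had 10 and 0 reads, or 0.121 and 0 RPKM, and DMSO oocytes 9 and 3 reads, or 0.115 and 0.0403 RPKM. Counting error alone leaves room for about 3 reads behind a 0 as a one-sided 95% limit, which is 0.0385 RPKM in HDACi 4b replicate 2. One library in each group was near 0.12 RPKM and the other near or at 0, so the groups overlapped. The fold was 0.844 with a 95% interval of 0.334 to 2.13 without a filter on low values (limma adjusted p = 1.0). The log2 fold change of -0.24 became 0.32 without HDACi 4b replicate 2 and 0.13 without DMSO replicate 1, and it was -1.102 in limma-voom on the recovered reads.

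**Figure D3:**
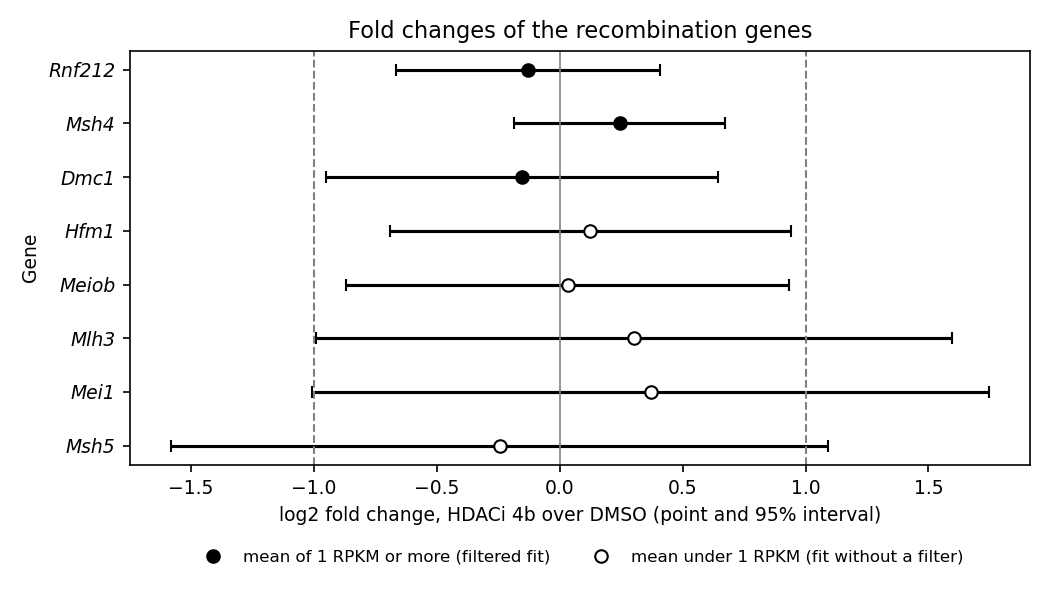
Log2 fold change of each gene, HDACi 4b over DMSO (points), with its 95% interval (bars), for 2 against 2 libraries. Filled points are genes with a mean of 1 RPKM or more and open points are genes below it; all 8 intervals include 0, and the interval lies between the dashed 2-fold limits for Rnf212, Msh4, Dmc1, Hfm1 and Meiob.

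Over all genes the comparison called as few as among the members. At an adjusted p under 0.05, 0 of 9461 genes averaging 1 RPKM or more were higher and 0 were lower with HDACi 4b (0% each, limma). At an unadjusted p under 0.05 there were 270 genes (2.85%), and 826 of all rows (3.1%) in the fit without a filter, with 0 of the 8 recombination genes among them. limma-voom on reads recovered from the RPKM values gave 0 of 17826 genes at an adjusted p and 333 at an unadjusted p under 0.05, again with 0 of the 8 recombination genes. Of these genes, 5 had a log2 fold change above 0 and 3 had one below 0. Their median was 0.079 without a filter, against 0.0018 for all rows. The whole interval lay within 2-fold for the 3 members tested, and for 81.1% of the 9461 genes. The interval did so for 5 of the 8 genes when the members below 1 RPKM were taken from the fit without a filter. In that fit it did so for 41% of all rows. The intervals of Mlh3, Mei1 and Msh5 did not exclude a change of 2-fold.

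Reference promoters are given for the member highest in level, the lowest, and the recombinase that stands between them, with the letters of a pair of known motifs marked. E2F6, which binds TCCCGC, and MGA with MAX, which bind CACGTG, are known to hold germline genes silent in mouse embryonic stem cells. The sequences are RefSeq promoter windows of GRCm38, 250 bases before to 50 after the start, 5′ to 3′ on the gene's strand, and capitals mark matches on either strand (TCCCGC or GCGGGA, and CACGTG), none of which overlap.
Rnf212 (chr5:108774978-108775277, minus strand): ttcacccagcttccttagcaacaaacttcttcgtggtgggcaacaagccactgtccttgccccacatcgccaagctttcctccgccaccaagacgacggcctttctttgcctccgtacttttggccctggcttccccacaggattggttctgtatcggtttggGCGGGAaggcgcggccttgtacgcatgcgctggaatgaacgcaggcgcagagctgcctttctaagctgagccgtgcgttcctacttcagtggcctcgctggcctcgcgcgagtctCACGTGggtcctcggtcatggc
Dmc1 (chr15:79605060-79605359, minus strand): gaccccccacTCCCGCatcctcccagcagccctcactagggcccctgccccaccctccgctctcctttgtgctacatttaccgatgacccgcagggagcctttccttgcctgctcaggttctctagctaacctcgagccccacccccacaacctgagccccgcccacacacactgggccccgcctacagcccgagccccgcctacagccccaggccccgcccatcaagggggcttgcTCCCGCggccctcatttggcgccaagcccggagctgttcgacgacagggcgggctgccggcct
Msh5 (chr17:35046573-35046872, minus strand): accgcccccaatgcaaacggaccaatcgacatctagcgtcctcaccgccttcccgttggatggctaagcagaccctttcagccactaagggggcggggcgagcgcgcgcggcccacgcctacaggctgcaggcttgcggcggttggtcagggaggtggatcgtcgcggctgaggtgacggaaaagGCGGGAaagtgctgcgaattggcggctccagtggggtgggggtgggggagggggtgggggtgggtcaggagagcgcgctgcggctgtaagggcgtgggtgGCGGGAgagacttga

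A RefSeq window was found for 7 of the 9 genes, and Mlh3 had 2. TCCCGC was in the windows of Rnf212, Dmc1, Msh5 and Hfm1, and in 19.98% of all 32851 windows of this length. CACGTG was in that of Rnf212, and in 7.15% of all windows. Rnf212 and Msh5, at the ends of the order of levels, thus both held TCCCGC. The number of CG dinucleotides was 22 in Rnf212, 18 in Dmc1 and 27 in Msh5, 41 in Hfm1, and 21 and 22 in the Mlh3 windows, against a median of 7 in all windows. It was 6 in Msh4 and 8 in Mei1, but their RefSeq starts lie 1247 and 12480 bases inside the GENCODE genes. A match is a description of the letters, and binding was not measured.

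Rnf212, the highest member, was compared with the other tested protein coding genes for its pattern. The distance was the root mean square difference over the 4 libraries in log2(RPKM + 0.1), after scaling. Of 7607 genes, Snrnp48, a gene of the minor spliceosome, was nearest at 0.055, followed by Prkag1, a regulatory subunit of the AMP-activated kinase, at 0.056. B3gntl1, a glycosyltransferase-like gene, was at 0.058. Snrnp48 was at 3.36 and 4.19 RPKM with HDACi 4b and 3.83 and 4.24 RPKM with DMSO. In all, 121 genes lay within a distance of 0.2, and since the distance is taken on the level itself it picks genes of about the same RPKM.

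Other genes of the pathway were described from lists of 61 genes, of which 59 had a row and 42 reached the filter. In limma 0 of the 42 passed an adjusted p, and 0 had an unadjusted p under 0.05, against 0% and 2.85% of all 9461 genes tested. Log2 fold changes were positive for 25 and negative for 17, with a median of 0.027, against -0.0025 for all genes tested. Of the 42 intervals, 41 (97.6%) stayed inside 2-fold, with Sfr1 as the exception, against 81.1% of all genes tested. The median level of the 59 genes was 3.82 RPKM, above that of the 8 genes described here.

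Upstream of the breaks, 1 of 5 tested genes had a log2 fold change above 0 and 4 had one below 0, with a median of -0.095. Mei4, needed for break formation, stood out by its level, at 75.2 and 86.9 RPKM in HDACi 4b oocytes and 76.7 and 106.7 RPKM in DMSO oocytes. Rec114, its partner, was at 7.57 and 5.67 RPKM against 6.48 and 11.2 RPKM. Both were far above Mei1, which acts at the same step, but they were named for having the highest means of their list. Of its 9 genes, 5 averaged at least 1 RPKM. Gm960, the earlier symbol of Top6bl, averaged 0.110 RPKM and Prdm9 0.260 RPKM, near the 0.140 RPKM of Mei1. Hormad1, a protein of the chromosome axis, had the smallest p of the 5 tested genes (limma adjusted p = 1.0), at 3.92 and 3.90 RPKM against 2.66 and 3.69 RPKM. Without HDACi 4b replicate 1 the log2 fold change of Mei4 turned to 0.087, while Rec114 and Hormad1 kept their signs without any single library. The signs of the other tested genes of this list were not checked in this way. In break processing, 6 of 6 tested genes had a positive log2 fold change, with a median of 0.14. Of these only Rad50, Exo1 and Brca1 were followed without scaling and without single libraries, and the other signs were not checked in this way. Brca1 kept its sign, but for Rad50 and Exo1 the sign turned without scaling or without a library. Rad50, of the complex that trims broken ends, was at 22.5 and 22.6 RPKM against 18.8 and 28.4 RPKM. Exo1, an exonuclease, was at 9.07 and 9.65 RPKM against 8.08 and 11.7 RPKM. Without scaling the log2 fold change was -0.036 for Rad50 and -0.053 for Exo1. It was -0.049 and -0.11 without HDACi 4b replicate 2, and -0.099 and -0.083 without DMSO replicate 1. Brca1, which promotes repair by recombination, had the smallest p of these 6 genes (limma adjusted p = 1.0), at 6.72 and 6.20 RPKM against 4.86 and 6.30 RPKM.

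Strand exchange was the largest list, with 9 of 18 tested genes positive and 9 negative and a median of -0.0071. Sfr1, which aids strand exchange, was listed at 2403 and 2379 RPKM with HDACi 4b and 2427 and 1975 RPKM with DMSO. Rpa3, a subunit of the single-strand binding protein, was at 182.0 and 202 RPKM against 191 and 178 RPKM. Brca2, which loads recombinases onto DNA, was at 11.6 and 11.2 RPKM against 9.03 and 9.81 RPKM (limma adjusted p = 1.0). Dmc1, at a mean of 1.18 RPKM, was below each of these 3 genes, but Sfr1 and Rpa3 were named for having the highest means of their list. Of its 20 genes with a row, 18 averaged at least 1 RPKM. Swsap1 (0.331 RPKM) and Mcmdc2 (0.0530 RPKM) lay below Dmc1.

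Of the other crossover genes 3 were tested, 2 positive and 1 negative, with a median of 0.0041. Tex11, a crossover protein of the chromosome axis, was at 31.1 and 33.0 RPKM with HDACi 4b and 32.2 and 34.7 RPKM with DMSO. AI481877, the earlier symbol of Shoc1, whose protein acts beside MSH4 in crossover formation, was at 4.14 and 4.10 RPKM against 3.35 and 3.71 RPKM (limma adjusted p = 1.0).

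Among the mismatch repair relatives, 2 of 4 tested genes were positive and 2 negative, with a median of 0.027. Msh6 was at 11.88 and 11.96 RPKM with HDACi 4b and 10.9 and 14.7 RPKM with DMSO. Pms1, a MutL relative of Mlh3, was at 5.88 and 5.23 RPKM against 4.49 and 4.91 RPKM (limma adjusted p = 1.0). Of the genes that resolve joint molecules, 5 of 6 tested were positive, with a median of 0.11. Only Blm, Rmi1 and Gen1 were followed without scaling and without single libraries, and the signs of the other tested genes were not checked in this way. The sign of Blm, a helicase that undoes joint molecules, turned without scaling, where its log2 fold change was -0.046. It also turned without HDACi 4b replicate 2 (-0.12) and without DMSO replicate 2 (-0.061), while Rmi1 and Gen1 kept their signs. Blm was at 5.96 and 6.50 RPKM against 6.07 and 6.80 RPKM. Rmi1, its partner, was at 5.15 and 4.01 RPKM against 4.12 and 4.62 RPKM, and Gen1, a resolvase, at 1.51 and 1.49 RPKM against 1.16 and 1.58 RPKM (limma adjusted p = 1.0).

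**Figure D4:**
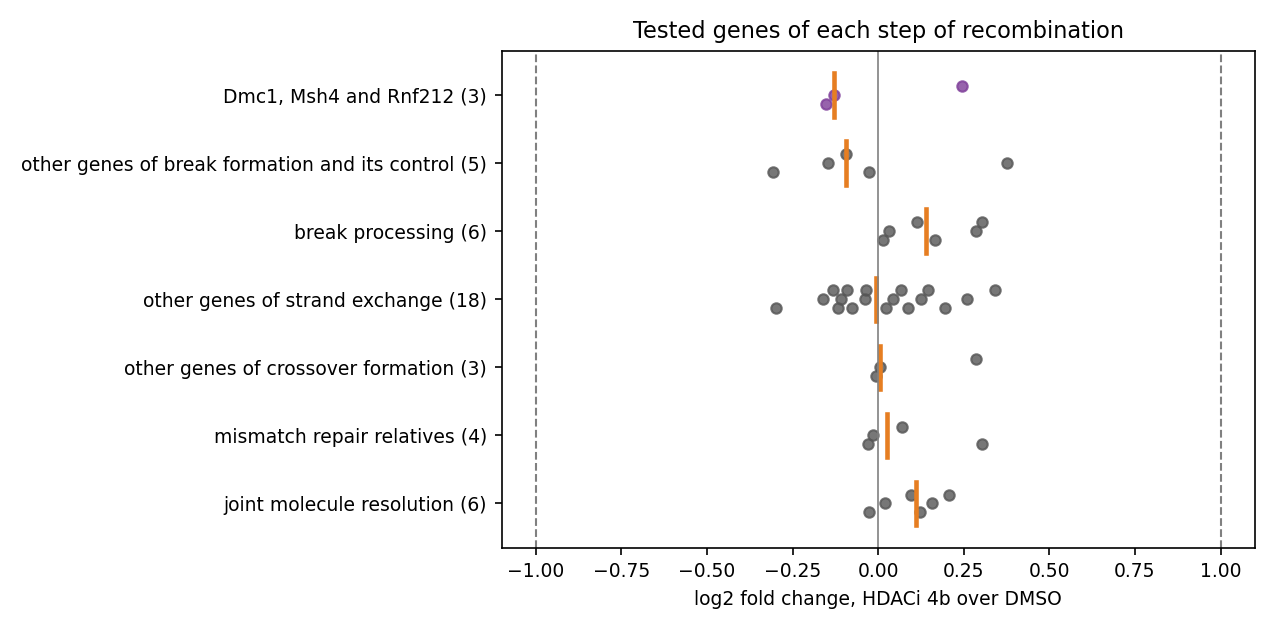
Log2 fold change of each tested gene, HDACi 4b over DMSO (points), for the members tested (top row) and for each list of other recombination genes, with the number of tested genes in parentheses; orange bars are medians and dashed lines the 2-fold limits. All points lie between the limits, and the medians run from -0.13 for the members tested to 0.14 for break processing.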

How the data were processed

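RNA of denuded oocytes was sequenced in 2 HDACi 4b and 2 DMSO libraries, grouped by the labels, which name the cells as denuded oocytes while the extraction note speaks of ovaries. The authors deposited RPKM values for 26631 rows, with 0 columns left unused. Bowtie 0.12.2 and build mm8 are named in the submitters' processing notes, but 22636 rows (85.0%) gave whole reads at exonic lengths of GENCODE M21, an annotation of GRCm38, which supplies all gene coordinates. How reads were counted, and whether by strand, is not given in the sources used here.

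Library totals (13478189 to 14903547 reads) and reads per gene were recovered from the RPKM values as whole numbers, within 0.01 reads at the annotated length and 0.001 at another length (3995 rows). The recovered reads summed to 104.0% to 104.4% of the totals, so lengths of some rows are too long or reads were shared. Intervals of reads are exact Poisson intervals at 95% and hold for counting error alone, because reads copied by PCR do not stand for separate molecules.

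Levels are given as deposited. For tests, RPKM were divided by trimmed mean factors (1.03 and 0.925 with HDACi 4b, 0.913 and 1.15 with DMSO; 30% of ratios and 5% of levels trimmed). limma 3.58.1 in R 4.3.3 was fitted to log2(RPKM + 0.1) of the 9461 genes averaging 1 RPKM or more, with an intensity trend, no covariate and two-sided tests, adjusted by Benjamini-Hochberg over all genes tested at 0.05. The members below 1 RPKM have values from the same fit over all rows. Fold changes on this scale understate the change of low genes. The test was checked on simulated reads of genes averaging 1 RPKM or more, without the scaling. The fit over all rows was not checked in this way.

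The members and lists were chosen with earlier results of these data known. Named were all members, the 2 genes with the highest mean and the one with the smallest p of each other list, and the 3 genes most like the highest member. One gene under this rule is not reported here. Alternatives were other scalings, filters and pseudocounts, limma-voom on the recovered reads, a robust prior, a block for the replicate number, and fits that leave out 1 library. They were followed for the counts over the whole table and for the named genes only.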

Additional observations from a re-analysis of the deposited data

How the results depend on the processing

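In the alternatives that kept all 4 libraries, 0 values of the 8 recombination genes passed an adjusted p of 0.05 (limma or limma-voom). Over all 13 alternatives 90 of their 98 values kept the direction. The filters, the robust prior and the replicate block cannot change a log2 fold change here, so their values kept it by construction. Of the 8 reversed values, 7 came on leaving out a library. Both counts of genes over the whole table stayed at 0 except that leaving out libraries gave 0 to 3 lower genes. The 3 came without HDACi 4b replicate 2 and were Krt18, Calcoco2 and Gm22107, chosen after their values were seen. With 1 library left in a group, it is assumed to vary like the other group. Without scaling, the log2 fold change reversed to -0.025 for Meiob, -0.036 for Rad50, -0.053 for Exo1, -0.064 for Tex11 and -0.046 for Blm. Leaving out libraries gave ranges of -0.13 to 0.87 for Mei1, -0.39 to 0.086 for Dmc1, -0.080 to 0.15 for Meiob, -0.81 to 0.32 for Msh5, -0.37 to 0.12 for Rnf212 and -0.065 to 0.67 for Mlh3. Of other genes they were -0.28 to 0.087 for Mei4, -0.099 to 0.16 for Rad50, -0.11 to 0.14 for Exo1, -0.12 to 0.51 for Sfr1, -0.092 to 0.34 for Rpa3, -0.12 to 0.12 for Tex11, -0.099 to 0.066 for Msh6 and -0.12 to 0.16 for Blm. limma-voom gave -1.102 for Msh5, whose value without a filter was -0.24. The cause of these changes was not tested. Msh4 (0.20 to 0.29) and Hfm1 (0.038 to 0.21) kept their sign throughout. With the replicate number as a block the counts were 0 higher and 0 lower genes. The deviations of same-numbered libraries correlated with r = 0.045 over 9461 genes, and the labels do not say that a number marks a shared culture. Depth limits Mei1 and Msh5 most, with 38 and 22 reads over the 4 libraries.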
